A study of Mus musculus with 12 samples.

Results

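The endothelial identity genes are 42 genes whose transcripts mark the cells that line blood and lymph vessels. The rule that picks them is a list of gene symbols with no threshold on a value, and each was read from its brightest probe set by mean log2 intensity over the 12 tumors. All 42 had a probe set with that single symbol, out of 18193 genes so measured. 36 of the 42 lay above the lowest 30% of gene means and were tested, among 12735 genes in all. The other 6, Tal1, Clec14a, Mmrn1, Rasip1, Palmd and Prox1, were below that level and are described by their levels.

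RNA came from LLC tumors, grown from Lewis lung carcinoma cells, a mouse lung cancer line, under the skin of female C57BL/6 mice that were 6 to 8 weeks old when injected. Treatment groups were formed at a tumor size of 60 to 80 mm3, and on day 19 each tumor was collected and measured on an Affymetrix array. The 4 groups held 3 tumors each: 1D11_radiation received the antibody 1D11 and radiation, radiation received the antibody 13C4 and radiation, 1D11 received 1D11 alone, and control received 13C4 alone. 1D11 neutralizes TGF-beta, 13C4 is the antibody of the same class used as its control, and every tumor therefore had an antibody. The characteristics give 5 fractions of 6 Gy while the sample descriptions give 2 Gy, so the dose is not settled, and the material is called cells in the descriptions but tumors in the source names. The labels number the replicates but do not say how they were obtained, so p-values measure the spread between these tumors.

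Endothelial cells form the inner wall of vessels and are held together by junction proteins such as VE-cadherin. They keep their identity through transcription factors of the ETS and SOX families, store clotting and leukocyte-capturing proteins in granules, and sprout under growth factor and Notch signals. Radiation is known to injure tumor vessels, and TGF-beta acts on both endothelial cells and the pericytes around them. In RNA of a whole tumor, fewer endothelial cells and less of these transcripts per cell cannot be told apart.

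ETS factors bind short DNA sites with the core GGAA, and the upstream sequences of the members that hold the longest such motif found are shown. RefSeq entries on GRCm38.p6 matched 22 of the 42 members with 30 start sites, and 9 motifs, chosen after matches had been seen, were searched on both strands of the 250 bases before each start. AACAGGAAG, which contains the shorter motifs CAGGAAG and AGGAAG, was found in 4 of the 30 windows (13.3%), against 285 of 32851 windows of all genes (0.868%). The 4 belong to Calcrl, Egfl7, Emcn and Ushbp1. Capitals mark the match on the printed strand or its reverse complement, in chr2:84425267-84425516 (minus strand) for Calcrl, chr2:26580833-26581082 (plus) for Egfl7, chr3:137340878-137340937 (plus) for Emcn and chr8:71395832-71395891 (minus) for Ushbp1.
Calcrl: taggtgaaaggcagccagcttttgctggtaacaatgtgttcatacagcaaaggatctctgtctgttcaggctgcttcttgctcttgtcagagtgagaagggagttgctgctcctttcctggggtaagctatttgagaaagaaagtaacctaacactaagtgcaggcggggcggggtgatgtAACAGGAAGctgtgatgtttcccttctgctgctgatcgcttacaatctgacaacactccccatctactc
Egfl7: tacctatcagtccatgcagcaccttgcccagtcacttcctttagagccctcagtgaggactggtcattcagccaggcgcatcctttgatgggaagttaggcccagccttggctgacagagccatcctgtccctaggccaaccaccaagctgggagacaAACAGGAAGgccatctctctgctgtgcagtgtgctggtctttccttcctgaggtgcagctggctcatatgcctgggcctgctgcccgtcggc
Emcn: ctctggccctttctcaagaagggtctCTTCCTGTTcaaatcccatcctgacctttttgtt
Ushbp1: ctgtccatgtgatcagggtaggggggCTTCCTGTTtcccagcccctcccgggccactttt

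The shorter AGGAAG stood in 15 of the 30 windows (50%), against 29.5% of all windows, and CAGGAAG in 36.7%, against 10.8%. GGAAGT was in 23.3%, against 19.7%, and TTCCTT in 30%, against 22.6%. AACAAT, of the type bound by SOX proteins, was in 16.7%, against 9.42%, and the GATA type AGATAA in 10%, against 9.99%. ACCGGAAG and CCGGAAG were in 0 member windows, against 1.72% and 6.91% of all windows. Sele, which was higher in irradiated tumors, has AGGAAG in chr1:164047984-164048233 (plus), and Myct1, which was lower, lacks that motif in chr10:5593478-5593727 (plus). The Myct1 window does hold GGAAGT, another motif with the core. Calcrl and Egfl7 were also lower in irradiated tumors and have AGGAAG, so its presence did not mark members that rose. A match of letters is a description and does not show that a factor binds there.
Sele: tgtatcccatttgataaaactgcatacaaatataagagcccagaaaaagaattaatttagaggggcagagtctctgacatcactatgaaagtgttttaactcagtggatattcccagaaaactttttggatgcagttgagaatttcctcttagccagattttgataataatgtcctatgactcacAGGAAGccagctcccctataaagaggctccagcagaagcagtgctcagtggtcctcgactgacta
Myct1: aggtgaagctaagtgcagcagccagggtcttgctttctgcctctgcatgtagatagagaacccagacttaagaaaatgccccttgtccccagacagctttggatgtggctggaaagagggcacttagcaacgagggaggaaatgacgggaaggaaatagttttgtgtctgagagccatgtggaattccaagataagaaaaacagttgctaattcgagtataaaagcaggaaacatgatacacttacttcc

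Of the transcription factors, Sox18, a SOX protein of developing vessels, had intensities of 105, 101 and 103 in 1D11_radiation tumors and 87.7, 77.5 and 99.9 in radiation tumors. It had 133, 113 and 144 in 1D11 tumors and 116, 155 and 169 in control tumors. All 6 irradiated tumors lay below all 6 others. Under 13C4, Sox18 fell by 0.72 ± 0.14 on the log2 scale in radiation tumors (SE, n = 3 tumors a group, adjusted p = 0.0291, limma), a 0.608-fold level. Sox7, Sox17, Erg and Fli1 did not pass, at -0.13, -0.50, -0.43 and -0.21, and 5 of the 5 tested factors were lower. Tal1, shared with blood cell precursors, ran from 31.3 to 43.3 over the 12 tumors.

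Among the junction and surface molecules, Ecscr, an endothelial surface protein, had intensities of 191, 208 and 181 in 1D11_radiation tumors, 197, 168 and 143 in radiation tumors, 209.8, 194 and 237 in 1D11 tumors, and 274, 267 and 251 in control tumors. Every control tumor was above every other tumor. Ecscr fell by 0.65 ± 0.11 in radiation tumors against control tumors (adjusted p = 0.0215, limma). Clec14a, a C-type lectin of the endothelial surface and below the filter, had 23.6 to 36.3 in 1D11_radiation tumors, 24.5 to 34.3 in radiation tumors, 36.2 to 42.5 in 1D11 tumors and 37.9 to 43.6 in control tumors. Its irradiated and other tumors overlapped at 36.3 and 36.2. In a fit with no filter it had -0.43 ± 0.11 over both antibodies and missed the threshold (adjusted p = 0.0547, limma).

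Esam, an adhesion molecule of endothelial junctions, had intensities of 229, 248 and 230.4 in 1D11_radiation tumors, 217, 218 and 213 in radiation tumors, 291, 247 and 264 in 1D11 tumors, and 251, 345 and 373 in control tumors. The radiation tumors lay close together below all control tumors. Esam fell by 0.56 ± 0.13 there (adjusted p = 0.0453, limma).

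Podxl ran the other way. This sialomucin of the vessel surface, which kidney podocytes and some tumor cells also make, had intensities of 365, 320.5 and 387 in 1D11_radiation tumors, 398, 409.6 and 360.1 in radiation tumors, 332, 343 and 308 in 1D11 tumors, and 235, 263 and 270.0 in control tumors. The 3 control tumors were the lowest. Podxl rose by 0.60 ± 0.09 in radiation tumors against control tumors (adjusted p = 0.0119, limma). Its second probe set, also above the filter, had 0.10 ± 0.15 in that comparison, and with probe sets averaged Podxl had 0.35 and did not pass.

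Vwf, the clotting protein of endothelial storage granules, had intensities of 91.9, 134 and 78.8 in 1D11_radiation tumors, 70.8, 55.4 and 69.1 in radiation tumors, 134, 96.3 and 121 in 1D11 tumors, and 95.7, 226 and 237 in control tumors. The radiation tumors were the 3 lowest of the 12, and control replicate 1 was less than either other control tumor. Vwf fell by 1.41 ± 0.31 in radiation tumors against control tumors, a 0.375-fold level (adjusted p = 0.0432, limma). The multimerin Mmrn2 was nearly flat at -0.06 ± 0.08, and Mmrn1 was low in all tumors, at 12.4 to 18.6.

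Ramp2, the partner that turns the receptor Calcrl into an adrenomedullin receptor, had intensities of 209, 201 and 173 in 1D11_radiation tumors, 135, 138 and 205 in radiation tumors, 279, 289 and 239 in 1D11 tumors, and 449, 332 and 313 in control tumors. All irradiated tumors lay below all others. Ramp2 fell by 1.20 ± 0.17 in radiation tumors against control tumors, a 0.434-fold level and the largest fall among members past the test after Vwf (adjusted p = 0.0114, limma).

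Calcrl itself had intensities of 424, 462 and 412 in 1D11_radiation tumors, 424, 402 and 310.2 in radiation tumors, 456, 483 and 610.2 in 1D11 tumors, and 491, 705 and 584 in control tumors. The 6 irradiated values and the 6 others overlapped at 462 and 456. Under 13C4 its difference was -0.64 ± 0.16 and missed the threshold (adjusted p = 0.0551, limma). The other receptors with an interval off 0 there were Adgrl4, an adhesion receptor, at -0.65, Adgrf5 at -0.78 and the sphingosine phosphate receptor S1pr1 at -0.29, and none passed. Eng, the TGF-beta co-receptor, had 0.00 ± 0.10.

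Egfl7, a protein that endothelial cells secrete into the matrix, had intensities of 442, 473 and 420.3 in 1D11_radiation tumors, 386, 385 and 352 in radiation tumors, 442, 429 and 429 in 1D11 tumors, and 451, 578 and 563 in control tumors. Radiation tumors were the 3 lowest. Egfl7 fell by 0.50 ± 0.09 against control tumors (adjusted p = 0.0258, limma), and its 4 probe sets ran from -0.51 to -0.27.

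In all, 7 of the 36 members passed in radiation against control, where called means a Benjamini-Hochberg adjusted p under 0.05 in limma over all 12735 genes. The share was 19.4%, against 2.39% of all genes tested. 6 fell, against 0.911% of all genes, and 1 rose, against 1.48%. 30 of the 36 were lower, against 50.4% of all genes, and their median was -0.36, against 0.00 over all genes. Groups did not overlap for 13 members lower and 1 higher in radiation tumors, against 10% and 10.6% of all genes. By role, 5 of 5 transcription factors, 8 of 9 junction and surface molecules, 2 of 4 granule and multimerin genes, 7 of 8 receptors, 4 of 5 signalling genes and 4 of 4 sprouting and fenestra genes were lower, with 1, 2, 1, 1, 0 and 1 called lower. Lyve1, the 1 lymphatic gene tested, was at 0.02.

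**Figure D1:**
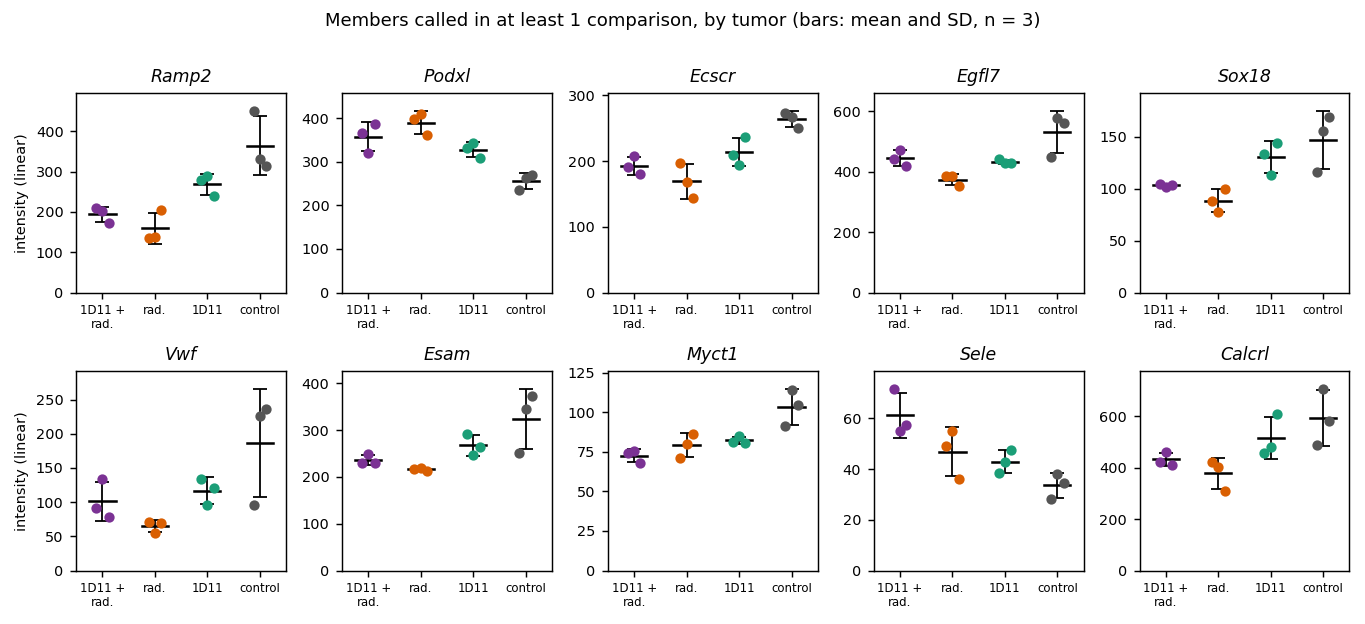
Intensity (linear, each axis starting at 0) of the 10 members that passed in any comparison, 1 point per tumor, by group from 1D11 with radiation to control, with mean and SD (n = 3). Ramp2 and Sox18 were lower in all 6 irradiated tumors, while Podxl had its 3 lowest values in the control tumors.

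Control replicate 1 stood apart from the other control tumors for the members. Its mean centred log2 intensity over the 36 was -0.15, against 0.30 and 0.39 in control replicates 2 and 3. Cldn5, a tight junction protein named after its values were seen, had intensities of 163, 233 and 195 in 1D11_radiation tumors, 114, 97.9 and 104 in radiation tumors, 209, 141 and 230.0 in 1D11 tumors, and 98.2, 362 and 372 in control tumors. Control replicate 1 therefore had a radiation-like Cldn5 level.

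The same tumor was low for VE-cadherin, Cdh5, which had intensities of 135, 154 and 154 in 1D11_radiation tumors, 120.1, 123 and 107 in radiation tumors, 190.5, 131 and 168 in 1D11 tumors, and 121, 236 and 262 in control tumors. Pecam1, which leukocytes and platelets also carry, had 113, 115 and 123 in 1D11_radiation tumors, 110.0, 110.1 and 84.7 in radiation tumors, 166, 109 and 123 in 1D11 tumors, and 106, 166 and 183 in control tumors. Cdh5 differed by -0.75 ± 0.24 and Pecam1 by -0.55 ± 0.20 in radiation against control, and neither passed (adjusted p = 0.128 and 0.181, limma).

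Without control replicate 1, 19 members passed in radiation against control, against 3.42% of all genes, and the median was -0.49. Podxl was higher, and Adgrf5, Adgrl4, Calcrl, Cdh5, Cldn5, Ecscr, Egfl7, Emcn, Esam, Esm1, Icam2, Myct1, Nos3, Pecam1, Plvap, Ramp2, Sox18 and Vwf were lower. Cldn5 then had -1.80 and Vwf -1.84. The count was 2 without control replicate 2, 3 without control replicate 3 and 1 without radiation replicate 1, against 1.3%, 1.6% and 0.306% of all genes. Without radiation replicate 2 it was 0 in limma, with 20 under an unadjusted p of 0.05, against 0.157% and 15.4% of all genes. In a fit of only these 6 tumors it was 0 as well in limma, with 19 under an unadjusted p of 0.05, against 0.0471% and 13.6% of all genes. Ramp2 and Podxl missed the threshold without radiation replicate 1 or 2, Ecscr without control replicate 2 or radiation replicate 2, and Egfl7 and Sox18 without control replicate 2 or 3 or radiation replicate 1 or 2. Of the 12 fits without 1 tumor, Vwf passed only in those without control replicate 1 or 1D11_radiation replicate 2, and Esam only in that without control replicate 1.

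**Figure D2:**
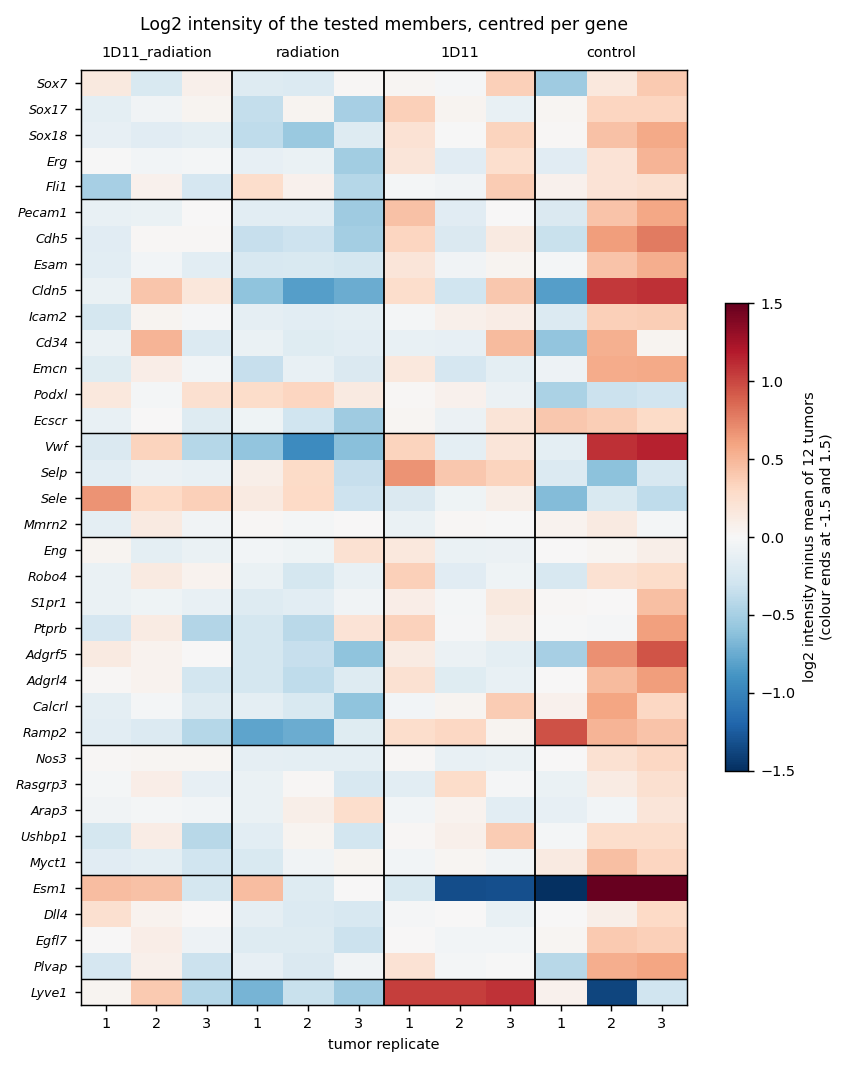
Log2 intensity of each tested member in each tumor, centred on the member's mean over the 12 tumors, with members by role and tumors by group from 1D11 with radiation to control. Control replicates 2 and 3 were above the mean for 30 and 31 of the 36 members, control replicate 1 for 15, and the radiation tumors for 6 to 8.

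Myct1, an endothelium-enriched membrane protein, had intensities of 74.2, 75.6 and 68.1 in 1D11_radiation tumors, 71.0, 80.1 and 86.2 in radiation tumors, 81.4, 84.9 and 80.7 in 1D11 tumors, and 91.6, 114 and 104 in control tumors. The control tumors were the 3 highest. In 1D11_radiation against control Myct1 fell by 0.50 ± 0.09 (adjusted p = 0.0277, limma), while under 13C4 radiation gave -0.38 ± 0.09 (adjusted p = 0.0562, limma). Of the members below the filter, Rasip1, a Ras-interacting protein needed for vessel lumens, ran from 25.1 to 36.1 over the 12 tumors and Palmd, palmdelphin, from 27.6 to 42.0. Control tumors held both ends of the Rasip1 range.

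Sele, E-selectin, which activated endothelium shows to passing leukocytes, had intensities of 71.5, 55.0 and 57.2 in 1D11_radiation tumors, 49.3, 55.2 and 36.2 in radiation tumors, 38.4, 42.7 and 47.5 in 1D11 tumors, and 28.4, 38.1 and 34.3 in control tumors. The 1D11_radiation tumors were above all control and all 1D11 tumors. Sele rose by 0.87 ± 0.17 in 1D11_radiation against control, a 1.82-fold level (adjusted p = 0.0302, limma). Its mean log2 intensity of 5.48 lay close above the filter level of 5.37. Group means were 5.93 in 1D11_radiation, 5.53 in radiation, 5.42 in 1D11 and 5.06 in control tumors. The control mean lay below that level, so Sele was tested partly through the groups where it was high.

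In 1D11_radiation against control, 4 of 36 members passed, against 2.35% of all genes. Myct1 and Ramp2 fell and Podxl and Sele rose, against 0.636% of all genes called lower and 1.71% called higher. Ramp2 fell by 0.89 ± 0.17 (adjusted p = 0.0307) and Podxl rose by 0.48 ± 0.09 (adjusted p = 0.0278, both limma). 31 of 36 were lower, against 50.6% of all genes, with a median of -0.28. Groups did not overlap for 7 members lower and 3 higher, against 12% and 14.7% of all genes. Without control replicate 1, 10 members passed, against 1.42% of all genes, and Podxl, Ramp2 and Sele were not among them. Without 1D11_radiation replicate 1 or 3, or in a fit of only these 6 tumors, 0 passed in limma, against 0.448%, 0.133% and 0.00785% of all genes. Under an unadjusted p of 0.05 there were 9, 9 and 11 members in these fits, against 17.9%, 16.5% and 18.5% of all genes. The count was 1, Podxl, without 1D11_radiation replicate 2 and 2 without control replicate 3, against 0.612% and 1.74% of all genes. Myct1 missed the threshold without control replicate 2 or 3, Sele without control replicate 3, and all 4 without 1D11_radiation replicate 1 or 3.

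Radiation was also compared over both antibodies, 6 irradiated against 6 other tumors. 9 of 36 members passed (25%), against 7.26% of all genes. 7 fell, against 3.87% of all genes, and 2 rose, against 3.39%. Ramp2 fell by 0.84 ± 0.12 (adjusted p = 0.00582), Sox18 by 0.52 ± 0.10 (adjusted p = 0.0133) and Ecscr by 0.40 ± 0.08 (adjusted p = 0.0162, all limma). Esam (-0.37 ± 0.09), Calcrl (-0.45 ± 0.11), Myct1 (-0.28 ± 0.07) and Vwf (-0.82 ± 0.22) fell at adjusted p from 0.0287 to 0.0475 (limma). Podxl (0.36 ± 0.06) and Sele (0.49 ± 0.12) rose, at adjusted p = 0.00972 and 0.0317 (limma), and with probe sets averaged Podxl had 0.25 and did not pass, nor did Calcrl at -0.19.

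32 of the 36 were lower in irradiated tumors, against 54.7% of all genes, with a median of -0.27. Irradiated and other tumors did not overlap for 3 members that were lower, Ramp2, Sox18 and S1pr1, against 2.41% of all genes, and for 0 that were higher, against 1.95%. Ramp2, Podxl, Sox18 and Ecscr passed with any single tumor left out, at adjusted p up to 0.0464 (limma), while the count ran from 4 to 18. It was 18 without control replicate 1, against 7.62% of all genes and with Sele lost. It was 4 without 1D11 replicate 2, radiation replicate 1, or 1D11_radiation replicate 1 or 3, against 3.2% to 4.57% of all genes. It was 5 without control replicate 3, 1D11 replicate 1, 1D11 replicate 3 or radiation replicate 2, against 4.26% to 6.79% of all genes. Of the fits without 1 tumor, Myct1 and Esam passed only without control replicate 1, radiation replicate 3 or 1D11_radiation replicate 2, Vwf only without control replicate 1 or 1D11_radiation replicate 2, and Calcrl only without control replicate 1 or 1D11 replicate 1. Sele passed only without control replicate 2 or 3, 1D11 replicate 3, radiation replicate 3 or 1D11_radiation replicate 2.

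Under 1D11, radiation (1D11_radiation against 1D11) gave 0 called members in limma, with 6 under an unadjusted p of 0.05, against 0.0785% and 15.5% of all genes. 25 of 36 were lower, against 57.6% of all genes, with a median of -0.13. Groups did not overlap for 6 members lower and 3 higher, against 16.5% and 9.59% of all genes. Without control replicate 1, 0 members passed in limma, against 1.78% of all genes. In that fit 9 members were under an unadjusted p of 0.05. The share of all genes at that threshold was 15.5% with all tumors and is not given for this fit. The smallest p-values were those of Selp, P-selectin of endothelial granules and platelets, and Lyve1.

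Selp had intensities of 98.0, 103 and 101 in 1D11_radiation tumors, 117, 134 and 86.4 in radiation tumors, 175, 145 and 139 in 1D11 tumors, and 94.9, 71.6 and 92.7 in control tumors. The 1D11 tumors were the 3 highest. Selp differed by -0.59 ± 0.16 in 1D11_radiation against 1D11 and by 0.83 ± 0.16 in 1D11 against control, and neither passed (adjusted p = 0.124 and 0.111, limma).

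Lyve1, a hyaluronan receptor of lymphatic endothelium that some macrophages also carry, had intensities of 767, 977 and 551 in 1D11_radiation tumors, 459.8, 592 and 514 in radiation tumors, 1523, 1527 and 1579.8 in 1D11 tumors, and 780.1, 287 and 606 in control tumors. The 1D11 tumors lay apart above all 9 others. Lyve1 differed by 1.59 ± 0.31 in 1D11 against control, a 3.00-fold level (adjusted p = 0.111, limma), and by -1.05 ± 0.31 in 1D11_radiation against 1D11 (adjusted p = 0.144, limma). Prox1, the transcription factor that sets lymphatic fate, was low at 11.8 to 16.4 in all tumors and did not rise with Lyve1. It had 11.8 to 12.2 in 1D11 tumors and 12.9 to 16.4 in control tumors. With no filter its difference was -0.28 ± 0.10 in 1D11 against control and did not pass (adjusted p = 0.256, limma). Its unused probe sets had -0.02 and 0.02 there. Flt4, from a list of other endothelial genes, had -0.45 ± 0.12 there and did not pass (adjusted p = 0.175, limma).

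1D11 against control gave 0 called members in limma, with 11 under an unadjusted p of 0.05, against 0.0157% and 14.1% of all genes. 30 of 36 were lower, against 37.9% of all genes, with a median of -0.14, against 0.04 over all genes. Groups did not overlap for 4 members lower and 4 higher, against 6.95% and 12.1% of all genes. Without control replicate 1, Adgrf5, Esm1 and Lyve1 passed, 3 members against 0.165% of all genes, with -0.85, -2.70 and 1.89.

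Esm1, endocan, a secreted marker of sprouting tip cells, had intensities of 159.9, 158 and 96.8 in 1D11_radiation tumors, 161, 102 and 117 in radiation tumors, 99.5, 46.1 and 46.5 in 1D11 tumors, and 40.7, 431 and 351 in control tumors. Control replicate 1 had the lowest Esm1 value of all and the other control tumors the highest ones. With all tumors its difference was -1.62 ± 0.72 in 1D11 against control (adjusted p = 0.342, limma), and its spread within groups was the widest among members.

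**Figure D3:**
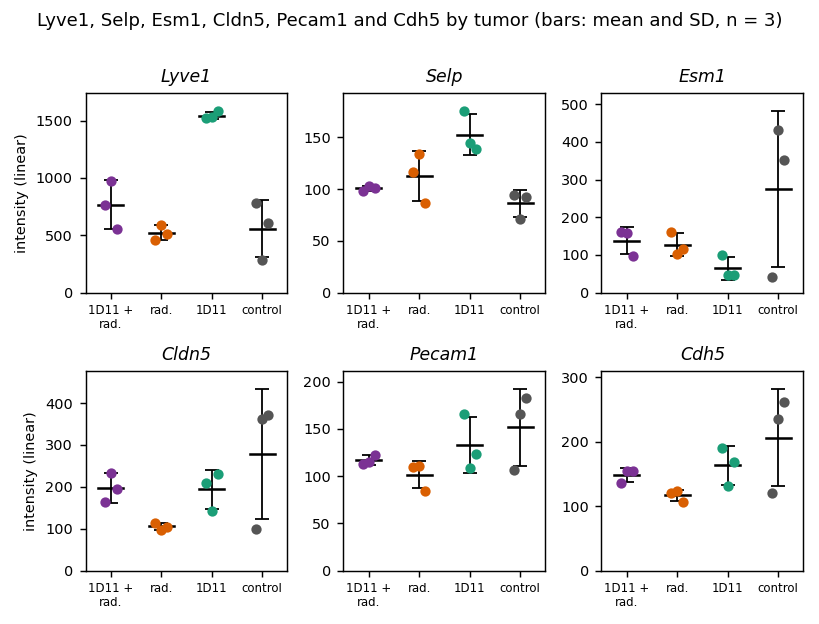
Intensity (linear, each axis starting at 0) of Lyve1, Selp, Esm1, Cldn5, Pecam1 and Cdh5, 1 point per tumor, by group from 1D11 with radiation to control, with mean and SD (n = 3). Lyve1 and Selp were highest in the 1D11 tumors, and control replicate 1, the leftmost control point, was low for Esm1, Cldn5, Pecam1 and Cdh5.

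1D11_radiation against radiation gave 0 called members in limma, with 3 under an unadjusted p of 0.05, against 0% and 5.4% of all genes. 26 of 36 were higher and 10 lower, against 49.2% of all genes lower, with a median of 0.19. Groups did not overlap for 11 members higher and 0 lower, against 7.3% and 6.12% of all genes. Dll4, the Notch ligand of tip cells, had intensities of 60.1, 52.8 and 51.1 in 1D11_radiation tumors, 46.5, 44.2 and 43.0 in radiation tumors, 50.1, 51.1 and 47.0 in 1D11 tumors, and 50.8, 53.9 and 62.6 in control tumors. The radiation tumors were the 3 lowest. Dll4 differed by 0.29 ± 0.09 and Egfl7 by 0.25 ± 0.09, both at adjusted p = 0.840 (limma). The second probe set of Dll4, below the filter, had 0.05 ± 0.15 in 1D11_radiation against radiation. Over both radiation states, 1D11 against 13C4 gave 0 called members in limma, with 4 under an unadjusted p of 0.05, against 0.00785% and 12.5% of all genes, and 18 of 36 were lower, against 41% of all genes. Lyve1 (1.05 ± 0.22) and Myct1 (-0.22 ± 0.07) had the smallest p in that comparison.

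The interaction, the effect of radiation under 1D11 minus that under 13C4, tested whether the antibody changed the response. 0 members passed in limma, with 12 under an unadjusted p of 0.05, against 0% and 7.48% of all genes. 29 of 36 differences were positive, with a median of 0.27, while 57.8% of all genes had a negative one. Vwf had -0.23 under 1D11 and -1.41 under 13C4, a difference of 1.18 ± 0.44 (adjusted p = 0.585, limma), with an interval of 0.21 to 2.16. Egfl7 had 0.04 under 1D11 and -0.50 under 13C4, a difference of 0.53 ± 0.13 (adjusted p = 0.381, limma). Selp had -0.59 under 1D11 and 0.37 under 13C4, a difference of -0.96 ± 0.22 (adjusted p = 0.380, limma). Without control replicate 1, 3 members passed, against 0.165% of all genes: Adgrf5 (1.32), Cldn5 (1.84) and Egfl7 (0.65).

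**Figure D4:**
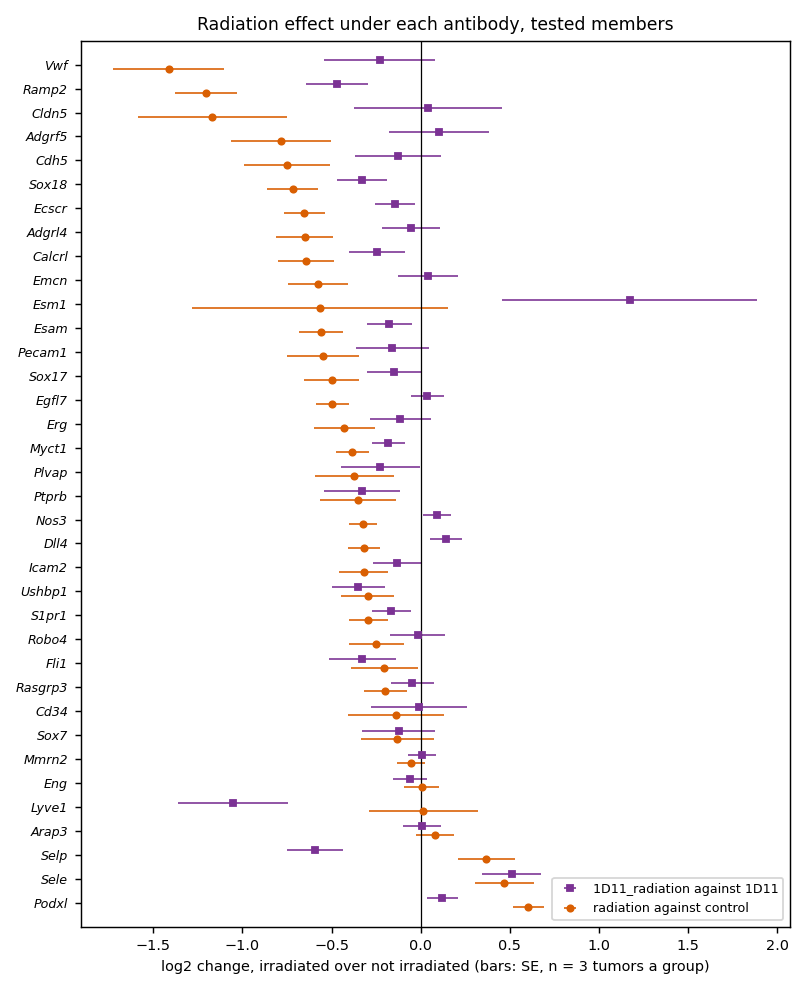
Log2 change in irradiated over not irradiated tumors for each tested member, under 1D11 and under 13C4, with SE (n = 3 tumors a group). Most members lay further below 0 under 13C4, with medians of -0.13 under 1D11 and -0.36 under 13C4, and no difference between the antibodies passed the test.

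Of 32 other endothelial genes listed, 26 were tested. In radiation against control 21 were lower, against 50.4% of all genes, with a median of -0.24, and 2 fell, against 0.911% of all genes. Aplnr, the apelin receptor, fell by 0.87 ± 0.12 (adjusted p = 0.00985), and Tek, the angiopoietin receptor, by 0.66 ± 0.13 (adjusted p = 0.0269, both limma). Over both antibodies 5 fell, against 3.87% of all genes, with She, Klf2 and Hey1 beside Aplnr and Tek, and the median was -0.13. Aplnr also fell under 1D11, by 1.66 ± 0.12 (adjusted p = 0.000322, limma). In 1D11 against control 0 of the 26 passed in limma, with 4 under an unadjusted p of 0.05, against 0.0157% and 14.1% of all genes.

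Markers of other cells were read beside these results, and their part in them was not tested. Of 10 tested pericyte and smooth muscle genes, 9 were lower in radiation against control, against 50.4% of all genes. 4 of them fell, against 0.911% of all genes: Pdgfrb, Rgs5, Mcam and Cspg4, at -2.05, -1.21, -0.83 and -0.44 (adjusted p from 0.0139 to 0.0396, limma). The summed intensity of the list was 2732 to 3181 in 1D11_radiation tumors, 3017 to 3303 in radiation tumors, 3488 to 3886 in 1D11 tumors and 3799 to 6957 in control tumors. All 10 tested leukocyte genes were higher in radiation against control. Cd3d and Itgam rose by 0.69 and 0.59 (adjusted p = 0.0264 and 0.0453, limma), against 1.48% of all genes called higher. Leukocyte sums were 8361 to 11551, 11498 to 12661, 9583 to 13566 and 8790 to 12011 in the same order of groups. The platelet gene Pf4 rose by 1.04 ± 0.13 (adjusted p = 0.00806, limma), 1 of 7 tested platelet genes to pass, and platelet sums were 5334 to 7521, 4030 to 5505, 3720 to 4087 and 2664 to 2853. The platelet list did not move as a whole in radiation against control. Ppbp had 0.52, Gp9 -0.19 and Gp1bb -0.07, and the rest lay from -0.02 to 0.02.

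All 14 skeletal muscle genes were higher in radiation against control, with a median of 1.13 and 0 called in limma (1 under an unadjusted p of 0.05). Their sums were 2480 to 9767 in 1D11_radiation tumors, 6846 to 29729 in radiation tumors, 5819 to 9326 in 1D11 tumors and 2952 to 19122 in control tumors, with the highest scores in radiation replicate 3 and control replicate 1. With the muscle score as a covariate 6 members passed in radiation against control, against 4.44% of all genes. In 1D11 against control, where Lyve1 and Selp were higher, all 8 mast cell genes were higher too, with a median of 1.05. Of all genes, 37.9% were lower there. Groups did not overlap for 6 of the 8, against 12.1% of all genes higher with no overlap. 0 of the 8 were called in limma and 6 were under an unadjusted p of 0.05, against 0.0157% and 14.1% of all genes. Mast cell sums were 1621 to 1929, 1674 to 2038, 3240 to 3655 and 1507 to 2171 in the 4 groups, 1D11_radiation, radiation, 1D11 and control.

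In radiation against control, of 10 fibroblast genes 6 were lower and Pdgfra fell by 0.98 ± 0.14 (adjusted p = 0.0114, limma). Of the 9 stress and RNA quality genes tested, 6 were lower and 0 passed in limma, with 1 under an unadjusted p of 0.05. 0 of 4 keratinocyte, 0 of 4 adipocyte and 0 of 2 red blood cell genes passed in limma, and 0 did at an unadjusted p of 0.05. Keratinocyte sums reached 3134 in a 1D11 tumor, against 404 to 473 in the tumors of the other groups. In 1D11 against control the stress genes Hspa1b and Hspa1a had -1.14 ± 0.21 and -1.18 ± 0.28, and neither passed (adjusted p = 0.111 and 0.141, limma). Dnajb1 had -0.15 and Dusp1 0.48 in that comparison, and the rest of that list lay from -0.11 to 0.24.

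**Figure D5:**
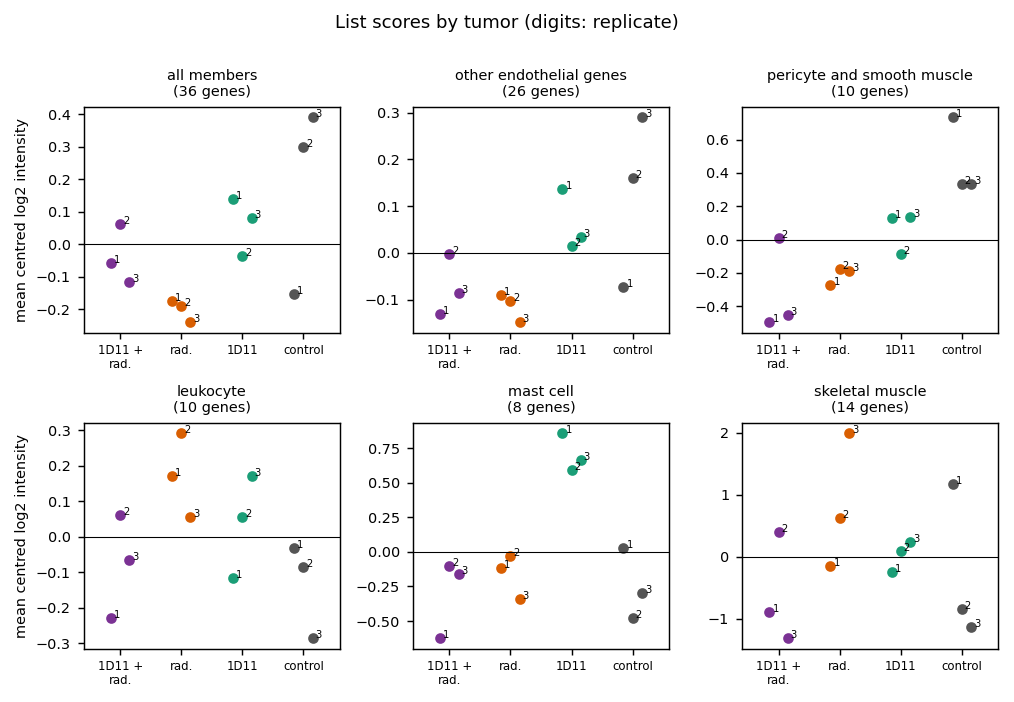
Mean centred log2 intensity of the tested members and of 5 other lists in each tumor, with digits for the replicate and groups from 1D11 with radiation to control. For the members the radiation tumors sat between -0.24 and -0.18 and control replicates 2 and 3 at 0.30 and 0.39, with control replicate 1 at -0.15.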

How the data were processed

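Whole-tumor RNA of 12 tumors was measured on 1-colour Affymetrix arrays. The deposited values are intensity per probe set on a linear scale. Which software and normalization made them is not given in the sources used here. Array medians of 62.3 to 66.1 differed little, so the arrays were taken as normalized and no further step was applied. The test used log2 of the intensity deposited by the authors. The array number, 3 per group, limits precision. GEO's platform annotation gave 34945 probe sets 1 symbol, 932 several and 9160 none. Genes below a mean log2 intensity of 5.37 were left out.

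limma 3.58.1 in R 4.3.3 fitted 1 mean per group over 12 arrays, with eBayes and 8 contrasts. Tests were two-sided with Benjamini-Hochberg adjustment over 12735 genes, and the fit was tested on simulated data. Members, lists and tests were chosen with earlier results of these data known.

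Values per tumor are given for members called in any contrast and for the 2 with the smallest p in each. Pecam1, Cdh5, Vwf, Lyve1, Prox1, Esm1 and Dll4 could be named anywhere, and of each other list up to 4 genes per contrast. Cldn5, Adgrf5 and members listed after a tumor was left out were named after their values were seen. The lists were other endothelial, pericyte and smooth muscle, fibroblast, leukocyte, platelet, mast cell, red blood cell, skeletal muscle, keratinocyte, adipocyte, and stress and RNA quality genes. A list score is the mean of its tested genes' log2 values, each centred over the tumors. The 11 alternatives covered probe sets, filter, scaling, offset, weights, trend, groups fitted, block and muscle, and 12 left out 1 tumor each.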

Additional observations from a re-analysis of the deposited data

How the results depend on the processing

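Under the 11 alternatives, 265 of 304 values of named members kept their direction and their side of the threshold, 31 no longer passed, 8 newly passed and 0 changed sign. Members called ran from 0 to 19 in radiation against control with 1 tumor left out, 0 to 0 in 1D11_radiation against 1D11, 0 to 3 in 1D11 against control, 0 to 0 in 1D11_radiation against radiation, 0 to 10 in 1D11_radiation against control, 4 to 18 for irradiated tumors over both antibodies, 0 to 0 for 1D11 over both radiation states and 0 to 3 for the interaction, whose median ran from 0.17 to 0.46. With array weights the counts were 22 in radiation against control, 5 in 1D11_radiation against 1D11, 14 in 1D11_radiation against control, 22 over both antibodies and 3 for the interaction, against 6.99%, 11.7%, 7.25%, 17.1% and 0.958% of all genes. With only the groups compared they were 0 in radiation against control, 1 in 1D11_radiation against 1D11 and 0 in 1D11_radiation against control, against 0.0471%, 0.934% and 0.00785% of all genes. Without control replicate 1 and radiation replicate 3 together they were 18 in radiation against control, 3 in 1D11_radiation against 1D11, 5 in 1D11 against control, 13 in 1D11_radiation against control, 18 over both antibodies and 1 for the interaction, against 4.47%, 3.29%, 0.463%, 2.68%, 11.1% and 0.157% of all genes. Whether replicate numbers pair the tumors is not given by the labels. After group means were removed, 3 of 18 same-numbered pairs correlated over 0.1 (r from -0.31 to 0.27). With 3 tumors a group these correlations cannot exclude pairing. The replicate block gave 1 in 1D11_radiation against control, 5 over both antibodies and 5 in radiation against control, against 0.667%, 5.17% and 1.62% of all genes. Quantile normalization gave 10, 4 and 9 members in radiation against control, 1D11_radiation against control and both antibodies, where 7, 4 and 9 were called as deposited. The number of all genes it called over both antibodies is not given here. Over all genes, those called higher and lower became 162 and 152 in radiation against control, where 188 and 116 were called as deposited. In 1D11_radiation against control they became 114 and 103, where 218 and 81 were called as deposited. The cause of these shifts was not tested. With 3 arrays a group and no raw scans, signal over background is not known, and the 6 members below the filter were left out by it. With no filter none of these 6 passed in limma, and Clec14a, Prox1 and Tal1 had an unadjusted p under 0.05 in some comparison.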

Other observations

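The members varied more between tumors of 1 group than genes in general. The median within-group SD of log2 intensity was 0.216 for the 36 tested members and 0.122 for the 12735 genes, with a highest value of 1.03 for Esm1. Control tumors had the highest group mean for 28 of the 36 members, and radiation tumors the lowest for 23.

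Several members are read by more than 1 probe set, 75 in all, and 22 members have several. In radiation against control the 4 probe sets of Myct1 ran from -0.46 to -0.14. The unused probe set of Sox17 had -0.91 ± 0.26, where the one used had -0.50 ± 0.15. That of Rasgrp3, a Ras exchange factor, had -0.51 ± 0.12, where the one used had -0.20 ± 0.12. The second one of Erg had -0.03 ± 0.10, where the one used had -0.43 ± 0.17. These probe sets were named after their values were seen.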
